A study of Mus musculus with 30 samples.

Results

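The genes described here encode the initiation and elongation factors of translation in mouse embryonic stem (ES) cells, read from nuclear RNA after rapid loss of SRCAP. They were chosen by name alone, as the protein-coding genes whose symbol begins with Eif followed by 1 to 6 or with Eef followed by 1 or 2. The rule gave 68 members among 55401 genes of the count tables, of which 21897 were protein-coding. A further 11 genes fitted the name pattern but were not protein-coding and were left out.

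SRCAP is the ATPase of a chromatin remodeling complex that places the histone variant H2A.Z at promoters and enhancers. SYAT cells were derived from the CGR8 mouse ES line by fusing YPet and an auxin-inducible degron (AID) to the end of both Srcap alleles and by stably expressing the auxin receptor OsTir1. Their control groups therefore carried the degron and the receptor too, and were kept in auxinole, an inhibitor of the receptor. The auxin indole-3-acetic acid (IAA, 500 µM) was given to SYAT cultures over 4 periods (2, 4, 6 and 8 h), and to parental CGR8 cells, which have no degron, for 4 h.

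In a sorting experiment, SYAT cells in early G1 (EG1) or late G1 (LG1) were collected with or without 1 h of IAA. According to the study's methods the phases were separated by DNA content and by a fluorescent reporter that is degraded in mitosis. In the rescue experiment, SYAT cells were induced with doxycycline for 24 h to express mCherry-tagged wild-type SRCAP (wtSRCAP) or a catalytically dead form (cdSRCAP), with or without 4 h of IAA. Each rescue line was a single clone sorted for mCherry, so the form of SRCAP and the clone cannot be told apart in a comparison of the 2 lines. All cells were grown with serum and leukemia inhibitory factor. There were 15 groups of 2 biological replicates, 30 libraries in all.

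Translation initiation begins when eIF2, loaded with GTP and the initiator methionyl-tRNA, joins the small ribosomal subunit together with eIF1, eIF1A, eIF3 and eIF5, and the eIF4F complex brings the capped mRNA to it. After the start codon is found, eIF2 leaves in its GDP form and is recharged by the exchange factor eIF2B. Kinases that phosphorylate the eIF2 alpha subunit block this recharging under stress. During elongation eEF1A delivers aminoacyl-tRNAs, the eEF1B subunits recharge it, and eEF2 moves the ribosome along the mRNA. In ES cells, as in other dividing cells, these factors are housekeeping genes and several are among the most abundant mRNAs.

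The exon columns of the 4 count tables held 17540823 to 22873893 counts per library in the SYAT time course, 45617992 to 60214521 in CGR8, 19740778 to 26672402 in the sorted cells and 12236493 to 26369773 in the rescue cells. Protein-coding genes took 82.2 to 92.0% of the exon counts in the time course but 71.8 to 92.1% in the rescue cells. Every rescue replicate 1 library lay lower, at 71.8 to 83.9%, than any rescue replicate 2 library, at 89.95 to 92.1%. The gene identifier with most counts among those without a match in the annotation at hand took 12.01 to 23.9% of the counts in the rescue replicate 1 libraries and 4.42 to 6.71% in replicate 2. In the time course it took 10.2% in replicate 2 at 6 h, which stood apart, and 3.06 to 8.47% in the other libraries. In CGR8 control replicate 1 stood apart, with 8.54% on that identifier and 87.7% on protein-coding genes. The other CGR8 libraries had 2.58 to 4.64% and 91.9 to 93.2%. All 10 ES cell markers (Pou5f1, Sox2, Nanog and others) were above 1 TPM (transcripts per 1e6, scaled for exon length) in every group. Their summed level was 5246 to 12330 TPM per library, beside 5.21 to 45.5 for 6 fibroblast, 0.864 to 15.1 for 5 endoderm, 5.07 to 26.7 for 4 mesoderm and 88.9 to 334.4 for 4 neural markers. Of the 6 fibroblast markers, 2 were above 1 TPM in every group, and Postn was at 0 in every group. Srcap transcript was at 815 to 1231 normalized exon counts in the time course and 1125 to 1273 in CGR8. It was at 1142 to 1367 in the sorted cells and 898.9 to 1369 in the rescue cells. The tables were normalized separately, so these ranges are not compared with each other. IAA acts on the SRCAP protein, so the transcript does not check the depletion.

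**Figure D1:**
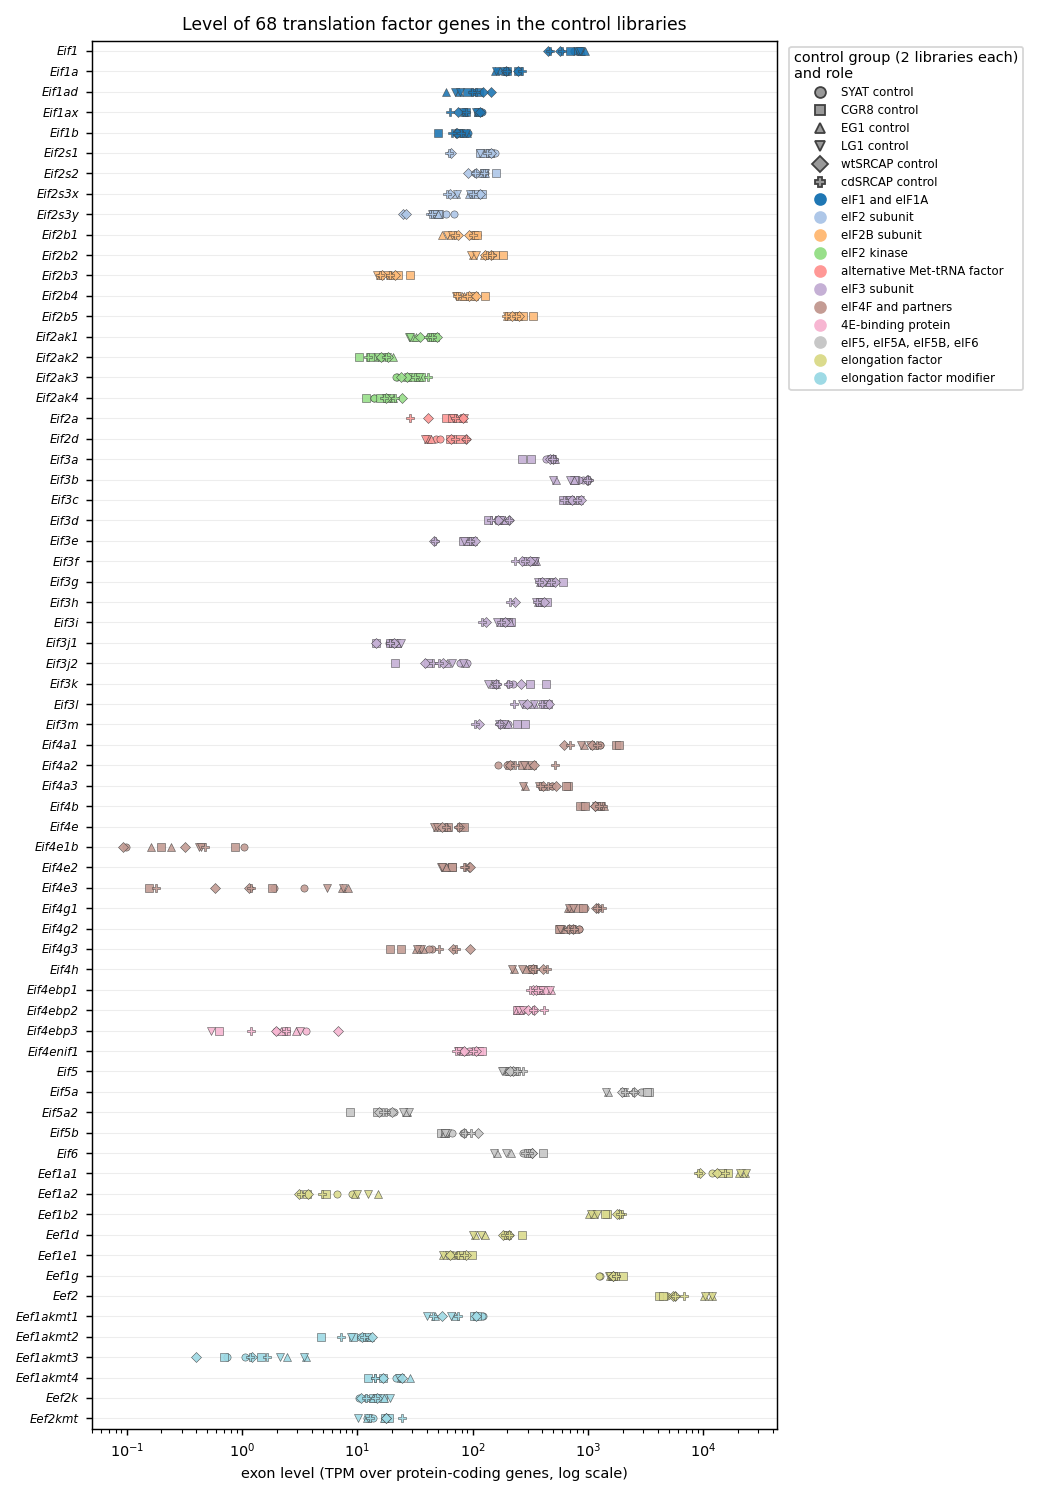
Exon levels of the 68 members in TPM (log axis) in the 6 control groups, 2 libraries per group, one row per gene. Colour marks the functional group and marker shape the control group. Eef1a1 and Eef2 are the highest rows in all 6 control groups, and Eif4e1b and Eef1akmt3 lie near or below 1 TPM in SYAT controls.

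Levels between genes were compared only per exon length, as TPM over protein-coding genes. In SYAT control cells Eef1a1, which encodes the eEF1A isoform used by most cells, was the most abundant member, with levels of 13190 and 11990 TPM in the 2 libraries. Eef2, the translocase, followed with 4874 and 4643 TPM, and Eif5a, a factor that relieves stalled peptide bond formation, with 3006 and 2854 TPM. These 3 genes kept their places without overlap between libraries.

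The next places were less distinct. Eif4a1, the main RNA helicase of eIF4F, had levels of 1270 and 1281 TPM and Eef1g, the structural subunit of eEF1B, 1275 and 1254 TPM, so that their order did not hold between libraries. Eef1b2, an exchange subunit of eEF1B, had levels of 1122 and 1112 TPM. Eif4g1, the scaffold of eIF4F (903.9 and 940 TPM), Eif4b, a helicase cofactor (884.9 and 949.8 TPM) and Eif3b, an eIF3 core subunit (907.4 and 829.9 TPM), overlapped with each other. In all, 38 members were above 100 TPM and 5 below 10 TPM, and the highest level was 4749 times the lowest one above 1 TPM.

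The lowest level belonged to Eif4e1b, an oocyte cap-binding protein, at 0.0979 and 1.05 TPM. Eef1a2, the isoform of muscle and neurons, had 9.0 and 6.72 TPM beside the levels of Eef1a1. Eif5a2, the rarer isoform of eIF5A, had 20.9 and 19.1 TPM. By functional group, the median level in SYAT controls was 1117 TPM for the 7 elongation factors, 271.4 for the 14 eIF3 subunits, 251 for the 12 eIF4F proteins and partners, and 206.6 for eIF5, eIF5A, eIF5B and eIF6. It was 106.3 TPM for the 4 eIF2 subunit genes, 105.6 for the 5 eIF2B subunits, 18.7 for the 4 eIF2 kinases and 11.98 for the 6 enzymes that modify elongation factors. The elongation factor group was set by gene name and includes Eef1e1, which encodes a scaffold of the tRNA synthetase complex. The median levels of the modifying enzymes and of the kinases were the 2 lowest in each of the 6 control groups.

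Eef1a1 and Eef2 were the most abundant members in every control group, although the tables were normalized separately and their levels are only set side by side. Eef1a1 had a mean level of 15360 TPM in CGR8, 21800 in EG1, 22010 in LG1, 11220 in wtSRCAP and 12110 in cdSRCAP controls. Eef2 had 4314, 11050, 11170, 5550 and 6234 TPM in the same order. The rescue libraries of replicate 1 and 2 differed widely, with Eef1a1 at 9259 and 13180 TPM in wtSRCAP and at 8973 and 15260 TPM in cdSRCAP controls. Replicate 2 was the higher library in both. Eef1a1 alone made up 30.1 to 44.0% of the summed TPM of the 68 members, depending on the group.

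The comparisons below use normalized exon counts, that is, counts divided by the library's scaled size within its table, and the log2 fold change fitted by edgeR. A gene was called when its absolute log2 fold change was over 0.5 and its adjusted p (Benjamini-Hochberg, over all genes tested) was under 0.05. In the main edgeR fit, which ignored the replicate number, no member was called in any of the 14 exon comparisons. In that fit, 20 members had an unadjusted p under 0.05 in at least 1 of the 12 comparisons between groups and 48 had none. In the sorted and rescue cells the numbers were taken to pair samples, which that fit and the overlap of libraries leave out. When libraries there were compared within their number, Eif2s3y passed the threshold in cdSRCAP over wtSRCAP with IAA (0.91, adjusted p = 0.00941, edgeR). Such a fit also gave calls in CGR8 and at 6 h in SYAT cells, where numbers were not taken as pairs. Some members share sequence or position with another gene (Eif1a with Eif1ax, Eif3j1 with Eif3j2, Eef1a1 with its pseudogenes, and Eif2ak1, Eif1b, Eif2b4 and Eif1ad with a gene on the opposite strand), and reads could be split or shared there. In nuclear RNA from bulk cells, fewer cells with a transcript and less of it per cell cannot be told apart.

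**Figure D2:**
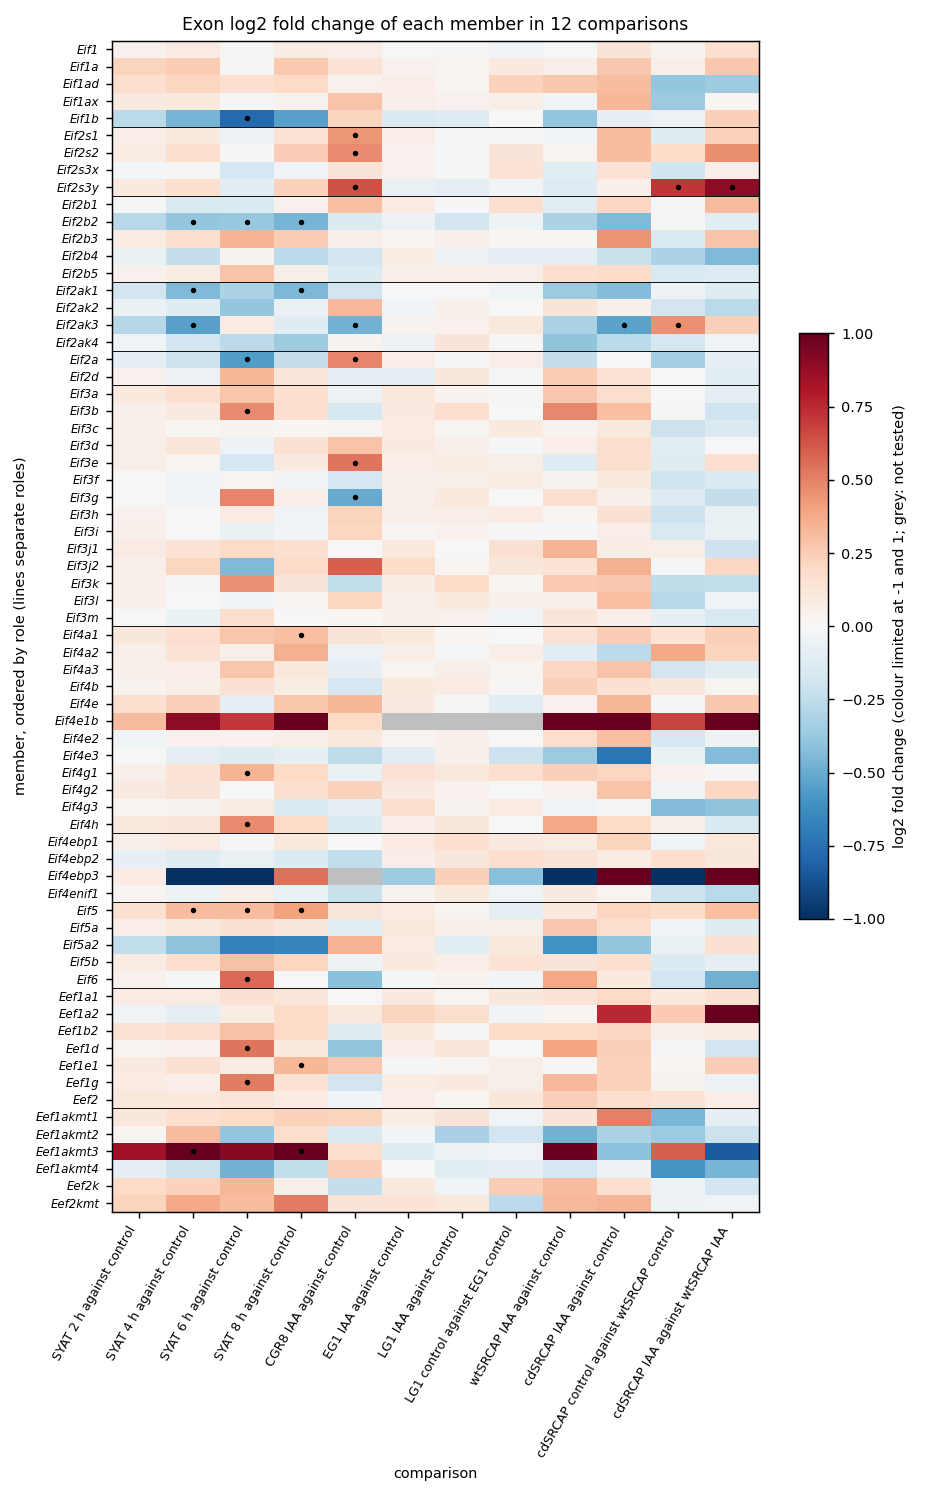
Log2 fold change of exon counts for the 68 members (rows) in the 12 comparisons between groups (columns). Colour runs from -1 to 1, grey marks a gene not tested and a black dot an unadjusted p under 0.05. The dots are most frequent in the SYAT 6 h and CGR8 columns and missing from both IAA columns of sorted cells.

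The first question was how the factors behaved over the hours after SRCAP loss. Of all 19205 genes tested, 0% were called at 2 h, 0% at 4 h, 0.0677% at 6 h and 0.00521% at 8 h. The members called were 0 of 68 at each time, by edgeR. With DESeq2, 1 member, Eif2a, was called at 6 h, 1.47% beside 3.37% of all genes, and none at the other times, beside 0.0469%, 0.953% and 2.32% at 2, 4 and 8 h. At an unadjusted p under 0.05, 0 of 68 members passed at 2 h, beside 3.92% of all genes. At 4 h, 2 members were higher and 3 lower, 7.35% beside 9.09% of all genes. At 6 h, 7 were higher and 3 lower, 14.7% beside 16.1%. At 8 h, 4 were higher and 2 lower, 8.82% beside 13.6%. The members' shares were below those of all genes at each of the 4 times. Replicate 2 of 6 h carried many of the 6 h values. Without it 5 members had an unadjusted p under 0.05 and none was called, beside 0% of all genes. Without replicate 1 of 6 h 10 members were called higher and 5 lower, 22.1% beside 15.4% of all genes.

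As a whole the members stayed close to the control level. Their median log2 fold change was 0.05, 0.07, 0.06 and 0.10 at 2, 4, 6 and 8 h, beside 0.00, 0.02, 0.01 and 0.03 for all genes. Members above 0 numbered 50, 46, 43 and 49 of 68. The 4 times share the same 2 control libraries, so their values are not independent. The median standard error of a member was 0.16 on the log2 scale. Both treated libraries were above both controls in 20, 25, 23 and 23 members at the 4 times (29.4%, 36.8%, 33.8% and 33.8%), beside 18.6%, 21.7%, 21.5% and 20.9% of all genes. Both were below in 9, 11, 11 and 10 members (13.2%, 16.2%, 16.2% and 14.7%), beside 21.0%, 24.1%, 22.2% and 24.0%. How many of all genes had every treated library on the same side of both controls was not counted. Members described below with such a run have no share of all genes beside them.

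**Figure D3:**
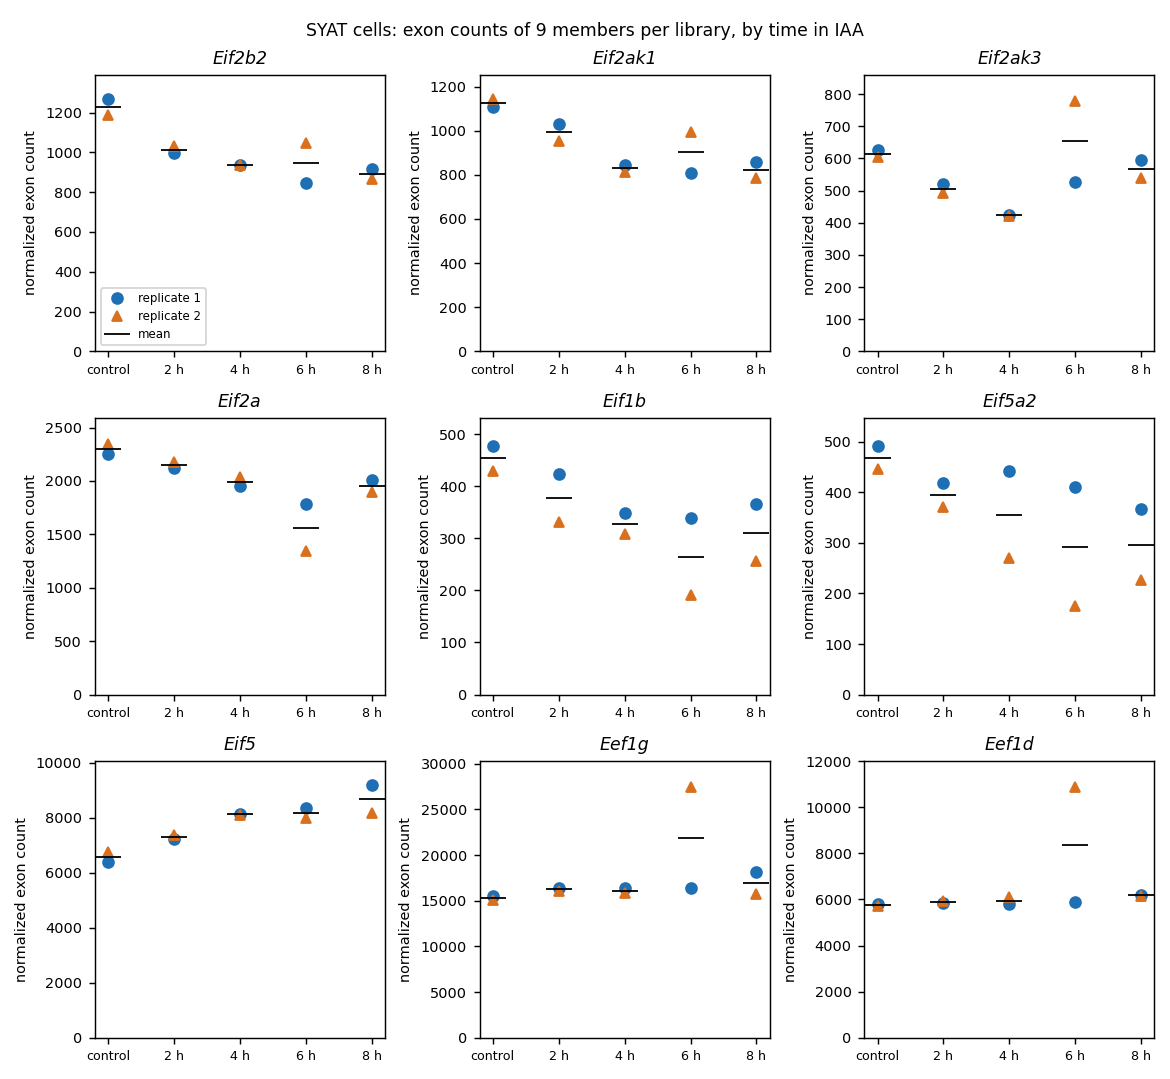
Normalized exon counts of 9 members in the SYAT time course, one panel per gene, with control and 2, 4, 6 and 8 h of IAA on the horizontal axis. Circles are replicate 1, triangles replicate 2 and bars the mean of the 2 libraries. Eif2b2 and Eif2ak1 lie below both controls at all 4 times, and in Eef1g and Eef1d the 6 h replicate 2 library is far above the other libraries.

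In the eIF2 cycle, the exchange factor gene Eif2b2 was below both controls in all 8 treated libraries. It encodes the beta subunit of eIF2B and lies on chromosome 12 from 85219481 to 85226628 of GRCm38. Its counts were 1267 and 1189 in controls, 994.9 and 1033 at 2 h, 938.2 and 937.1 at 4 h, 844.2 and 1049 at 6 h and 916.2 and 865.7 at 8 h. The counts were lowest at 6 h in replicate 1 and at 8 h in replicate 2. The log2 fold change was -0.28 (SE 0.141, unadjusted p = 0.0789, edgeR) at 2 h and -0.46 (SE 0.142, adjusted p = 0.191) at 8 h, with -0.39 and -0.38 (adjusted p = 0.421 and 0.237) between. None passed the threshold. The other 4 eIF2B subunits gave no unadjusted p under 0.05 in any of the 12 comparisons.

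The 4 eIF2 kinase genes each had a log2 fold change below 0 at 2, 4 and 8 h, and 3 of 4 did at 6 h. Their median log2 fold change was -0.12, -0.31, -0.29 and -0.24 at the 4 times. Of all genes 49.4%, 47.6%, 49.1% and 46.8% were below 0 at 2, 4, 6 and 8 h. Eif2ak1, the heme-regulated kinase, had counts of 1106 and 1144 in controls, 1031 and 955.2 at 2 h, 846.8 and 812.9 at 4 h, 809.8 and 993.8 at 6 h and 860.2 and 785.9 at 8 h. All 8 treated libraries were below both controls, with a log2 fold change of -0.44 (SE 0.144, adjusted p = 0.354) at 4 h and -0.45 (SE 0.144, adjusted p = 0.208) at 8 h. Eif2ak3, the kinase of the endoplasmic reticulum known as PERK, had counts of 626.8 and 603.5 in controls, 520.3 and 491.1 at 2 h, 424 and 422.3 at 4 h, 526.4 and 779.2 at 6 h and 595.1 and 539.1 at 8 h. It was lowest at 4 h, where the log2 fold change was -0.54 (SE 0.189, adjusted p = 0.398), and 6 h replicate 2 was above both controls.

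Eif2ak4, the amino acid sensor GCN2, went from 485.1 and 485.3 counts in controls to 417.4 and 392.8 at 6 h and 319.1 and 439.1 at 8 h. Eif2ak2, the double-stranded RNA sensor PKR, had 335.1 and 406.8 counts in controls and 265.6 and 302.4 at 6 h. Both were lower at 6 h in each library, with no unadjusted p under 0.05. The eIF2 subunits themselves had median log2 fold changes of 0.07, 0.13, -0.08 and 0.19 at the 4 times, and none of the 4 had an unadjusted p under 0.05.

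Eif2a, which is not a subunit of eIF2 but a separate protein able to bring the initiator tRNA to the ribosome, lies on chromosome 3 from 58525821 to 58557501. Its counts were 2257 and 2350 in controls, 2120 and 2179 at 2 h, 1949 and 2035 at 4 h, 1782 and 1341 at 6 h and 2011 and 1893 at 8 h. All treated libraries were below both controls. The log2 fold change at 6 h was -0.56 (SE 0.146, adjusted p = 0.118), the lowest adjusted p of any member in the time course, and it was -0.37 without replicate 2 of 6 h. Serp1 overlaps Eif2a on the opposite strand, and the strand setting of the counting is not given in the sources used here.

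The promoters of Eif2b2, Eif2ak1, Eif2ak3 and Eif2a are shown as examples. In these genes 7 or all 8 treated libraries were below both controls. The same held for other members, Eif1b among them, whose promoters are not shown. The promoter of Eef2, the second most abundant member, stands beside them as that of an abundant gene with a TATA box. Each line gives the 120 bases before the RefSeq start of the gene on GRCm38, plus strand, 5′ to 3′, with capitals marking matches to the motifs searched on both strands. The motifs were the ETS core CCGGAAG, the TATA box TATAAA, the CCAAT box CCAAT and TGACG, the core of the cyclic AMP response element.
Eif2b2 (chr12:85219361-85219480): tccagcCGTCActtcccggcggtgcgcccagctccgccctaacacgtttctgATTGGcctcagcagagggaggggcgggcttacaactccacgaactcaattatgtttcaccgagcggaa
Eif2ak1 (chr5:143817672-143817791): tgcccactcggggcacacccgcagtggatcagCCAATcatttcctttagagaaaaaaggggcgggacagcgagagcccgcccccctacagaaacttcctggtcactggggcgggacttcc
Eif2ak3 (chr6:70844395-70844514): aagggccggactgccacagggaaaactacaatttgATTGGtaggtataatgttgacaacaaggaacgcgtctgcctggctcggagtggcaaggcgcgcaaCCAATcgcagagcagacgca
Eif2a (chr3:58525701-58525820): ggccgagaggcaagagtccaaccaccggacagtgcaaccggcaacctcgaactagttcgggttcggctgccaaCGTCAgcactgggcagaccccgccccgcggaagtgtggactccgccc
Eef2 (chr10:81176511-81176630): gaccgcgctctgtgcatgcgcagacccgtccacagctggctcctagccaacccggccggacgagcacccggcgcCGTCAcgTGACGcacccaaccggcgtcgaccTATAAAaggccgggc
Eif2b2 held a CCAAT box and a TGACG core, Eif2ak1 a CCAAT box, Eif2ak3 a pair of CCAAT boxes, Eif2a a TGACG core, and Eef2 a TATA box beside a pair of TGACG cores.

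RefSeq gave a promoter for 52 of the 68 members and for 16512 genes in all. In the 250 bases before the start, TGACG was found in 21 members (40.4%, beside 20.8% of all promoters) and CCGGAAG in 10 (19.2%, beside 9.54%). The CCAAT box was found in 14 members (26.9%, beside 36.1%) and the TATA box in 5 (9.62%, beside 11.95%). The 4 motifs do not contain one another. A match describes the letters of the window and is not a measured binding site.

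In the scanning complex, Eif1b, a near relative of the start codon selection factor eIF1, had counts of 477.8 and 429.6 in controls, 423.3 and 330.6 at 2 h, 348 and 308.4 at 4 h, 339.1 and 190.7 at 6 h and 366.1 and 256.1 at 8 h. All treated libraries lay below both controls, and replicate 2 was the lower one at each time. The log2 fold change was -0.77 (SE 0.28, adjusted p = 0.220) at 6 h and -0.42 without replicate 2 of that time. Eif5a2 had a like course, with 491.3 and 446.5 counts in controls, 410.2 and 174.4 at 6 h and 367.1 and 226.7 at 8 h. At 6 h Eif5a2 was at -0.68 on the log2 scale (SE 0.380, adjusted p = 0.402) with both libraries and at -0.19 without replicate 2.

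Eif5, the protein that triggers GTP hydrolysis by eIF2, lies on chromosome 12 from 111538016 to 111546752. Its counts were 6393 and 6751 in controls, 7239 and 7374 at 2 h, 8131 and 8104 at 4 h, 8346 and 7974 at 6 h and 9177 and 8151 at 8 h. All 8 treated libraries exceeded both controls. The log2 fold change was 0.15, 0.30, 0.31 and 0.40 at the 4 times, with an adjusted p of 0.165 (SE 0.115) at 8 h. Within the same functional group Eif6, which keeps ribosomal subunits apart, was at 3821 and 3455 counts in controls and 3638 and 7122 at 6 h. Its log2 fold change at 6 h was 0.56 (SE 0.25, adjusted p = 0.304) with both libraries and 0.00 without replicate 2.

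Eif4a1 had counts of 25810 and 25780 in controls and 34720 and 28890 at 8 h, a log2 fold change of 0.30 (SE 0.127, adjusted p = 0.336). Both 8 h libraries were above both controls. In Eif4h, a helicase cofactor, the 6 h counts of 9446 and 13610 were above the 8681 and 7932 of controls, and in Eif4g1 those of 34260 and 45340 were above 30940 and 31860. The log2 fold changes at 6 h were 0.47 (adjusted p = 0.217) and 0.34 (adjusted p = 0.287), and 0.19 and 0.13 without replicate 2. Eif3b had 14230 and 12890 counts in controls and 15010 and 22690 at 6 h, a log2 fold change of 0.48 (adjusted p = 0.252) that was 0.15 without replicate 2.

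All 7 genes of the elongation factor group, Eef1e1 included, had log2 fold changes above 0 at 6 h and at 8 h. The median was 0.15 at both times, and 50.9% and 53.2% of all genes were above 0. Eef1g had 15540 and 15130 counts in controls, 16360 and 27440 at 6 h and 18190 and 15740 at 8 h. Eef1d, an exchange subunit of eEF1B, had 5811 and 5725 in controls and 5889 and 10860 at 6 h. In both genes 1 library decided the 6 h value. The log2 fold change of 0.51 (SE 0.204, adjusted p = 0.257) for Eef1g was 0.10 without replicate 2, and that of 0.54 (SE 0.223, adjusted p = 0.276) for Eef1d was 0.03.

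The 2 most abundant members were above both controls in both libraries at some times and overlapped with them at others. Eef1a1 had 154100 and 138700 counts in controls, 163100 and 147600 at 2 h, 169300 and 141100 at 4 h, 162600 and 163400 at 6 h and 179100 and 139100 at 8 h. Eef2 had 75950 and 71640 counts in controls, 81660 and 76730 at 2 h, 85150 and 73450 at 4 h, 83060 and 77610 at 6 h and 88370 and 67590 at 8 h. Eef1a1 was without overlap at 6 h, and Eef2 at 2 h and 6 h, with log2 fold changes of 0.15 (Eef1a1, 6 h), 0.10 (Eef2, 2 h) and 0.12 (Eef2, 6 h) and an unadjusted p of at least 0.369 by edgeR. Eef1e1, a scaffold of the tRNA synthetase complex, had 1052 and 1117 in controls and 1396 and 1337 at 8 h, a log2 fold change of 0.33 (SE 0.124, adjusted p = 0.274) without overlap.

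Among the modifying enzymes, Eef1akmt3, a lysine methyltransferase of eEF1A, was counted sparsely, with 13.5 and 9.28 counts in controls, 34.1 and 28.3 at 4 h, 22.5 and 20.1 at 6 h and 35.0 and 22.7 at 8 h. The libraries from 4 h on were above both controls, with a log2 fold change of 1.46 (SE 0.493, adjusted p = 0.373) at 4 h. It overlaps Mettl1 on the opposite strand. Eef2kmt, a methyltransferase of eEF2, had 152 and 169.6 counts in controls and 207 and 251.1 at 8 h, a log2 fold change of 0.51 (SE 0.229, adjusted p = 0.368).

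A group of remaining members was picked by the rule on the largest differences without overlap. At 2 h these were Eif1a, an eIF1A gene (3324 and 3866 counts in controls, 4178 and 4229 treated), and Eif1ad, which is related to eIF1A (1296 and 1300 in controls, 1455 and 1466 treated). At 4 h the methyltransferase gene Eef1akmt2 had 95.2 and 86.1 counts in controls and 113.4 and 110.5 treated. Eif4ebp3, an inhibitor of eIF4E, had 12.4 and 6.75 counts in controls and 3.30 and 4.28 at 4 h and 3.56 and 0 at 6 h, and Eif4e1b 1.03 and 10.97 in controls and 13.0 and 14.3 at 8 h. The last 2 genes rest on a few counts per library, and none of these 5 reached an unadjusted p under 0.05.

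Parental CGR8 cells, which lack the degron, were given IAA for 4 h to show what the compound does without loss of SRCAP. Among 20250 genes 0.00988% were called, and 0 of the 67 members tested by edgeR. At an unadjusted p under 0.05, 5 members were higher and 2 lower, 10.4% beside 9.16% of all genes. DESeq2 called 1 member, Eif2s3y, 1.49% beside 0.691% of all genes. The members' median log2 fold change was 0.02, beside -0.00 for all genes, and 38 of 67 were above 0.

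**Figure D4:**
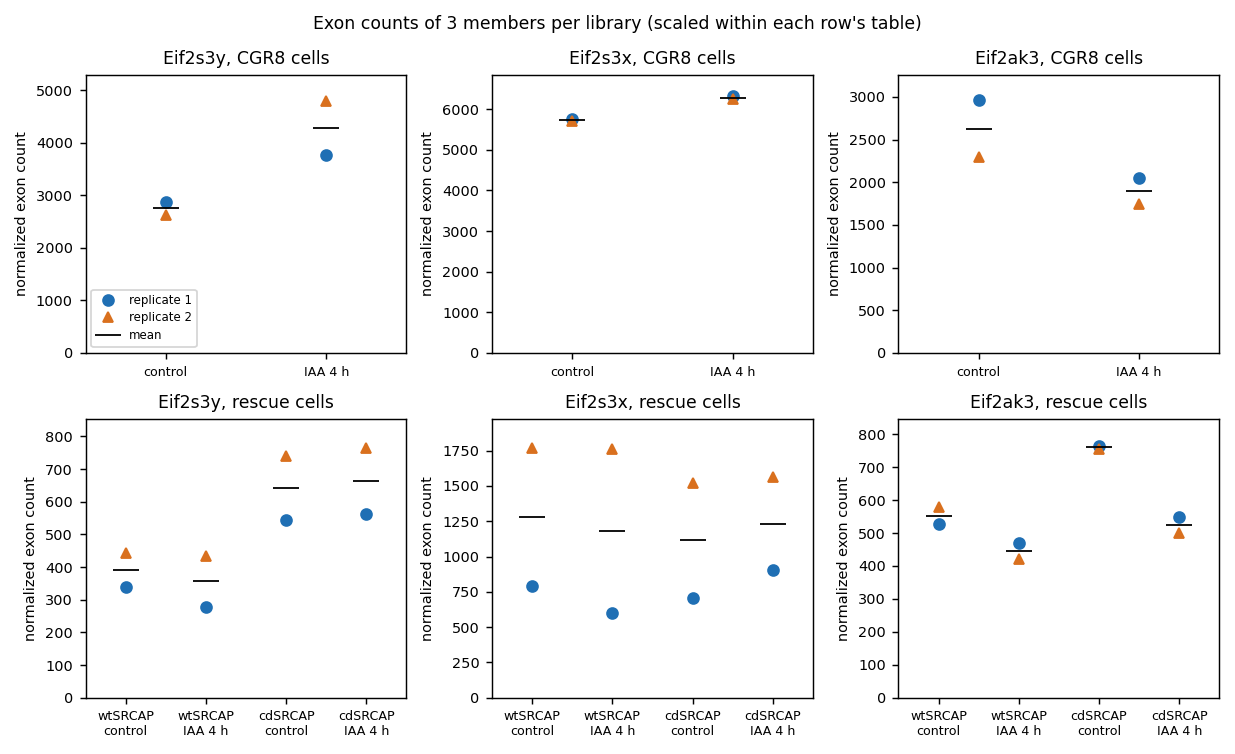
Normalized exon counts of Eif2s3y, Eif2s3x and Eif2ak3 in CGR8 cells and in the rescue cells, by group. Circles are replicate 1, triangles replicate 2 and bars the mean of 2 libraries. Eif2s3y is above its control range in CGR8 cells after IAA and higher in all cdSRCAP than in all wtSRCAP libraries, and Eif2ak3 is lower after IAA in both cell types.

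All 4 eIF2 subunit genes had log2 fold changes above 0 in CGR8, with a median of 0.46, while 49.96% of all genes were above 0. Eif2s3y, the Y-linked gene of the gamma subunit, had 2882 and 2623 counts in controls and 3759 and 4798 with IAA. Its log2 fold change was 0.64 (SE 0.160, unadjusted p = 0.00352, adjusted p = 0.540) in exons and 0.10 in introns. Eif2s3x, its X-linked near copy, had 5754 and 5720 counts in controls and 6316 and 6258 with IAA, a log2 fold change of 0.13 (edgeR, unadjusted p = 0.322). Reads shared by the 2 copies could be split between them by the authors' counting.

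Eif2s1, the alpha subunit that the stress kinases phosphorylate, had 7782 and 8847 counts in controls and 10000 and 12610 with IAA, a log2 fold change of 0.44. Eif2s2, the beta subunit, had 11570 and 13470 in controls and 15510 and 19160 with IAA, a log2 fold change of 0.47. Eif2a (4898 and 5115 in controls, 6357 and 7695 with IAA) and the eIF3 subunit gene Eif3e (7574 and 8105, then 9976 and 12700) had log2 fold changes of 0.49 and 0.53. In all 4 genes both treated libraries were above both controls, and the adjusted p was 0.540. Such a lack of overlap was common in CGR8, with 18 of 67 members (26.9%) above their controls in both libraries, beside 21.6% of all genes, and 8 (11.9%) below, beside 20.6%.

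Among genes that were lower in CGR8, Eif2ak3 had 2959 and 2292 counts in controls and 2045 and 1747 with IAA, a log2 fold change of -0.47 (SE 0.173, adjusted p = 0.540). Eif3g, an eIF3 subunit, had 16520 and 11650 in controls and 11250 and 8609 with IAA, a log2 fold change of -0.50 (SE 0.196, adjusted p = 0.540). Eif4ebp2, an inhibitor of eIF4E, had 19540 and 17650 in controls and 16600 and 14800 with IAA, with -0.24. The treated libraries lay below both controls in all 3, as they did in the 20.6% of all genes just given. Control replicate 1, which stood apart in its share of unmatched counts, was the highest library in all 3. Whether the make-up of that library contributed was not tested. Control replicate 2 mattered for these values, since without it Eif3g was at -0.73 and Eif2ak3 at -0.64, and 13 members were called, 19.1% beside 10.9% of all genes. Without control replicate 1, 1 member was called, 1.49% beside 0.734%.

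Eif2ak3 was thus at -0.47 after 4 h of IAA in cells without a degron and at -0.54 after 4 h in SYAT cells. The 2 tables were not tested against each other. SYAT controls were kept in auxinole, so IAA is set against auxinole there. The study's methods do not state whether CGR8 controls had auxinole, so the 2 contrasts may not be alike. Eif2b2 was at -0.14 in CGR8 and -0.39 in SYAT at 4 h, Eif2ak1 at -0.19 and -0.44, and Eif5 at 0.12 and 0.30. Each of these 3 had a smaller difference in CGR8, but the difference between the cell lines was not tested.

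The sorted cells were compared to see whether 1 h of IAA acts in early or late G1. In EG1 0% and in LG1 0% of 21020 genes were called, and 0 of 67 members in each by edgeR and by DESeq2. A milder rule was also used for these cells, an absolute log2 fold change over 0.25 at an unadjusted p under 0.05. It took 1.22% of all genes in EG1 and 1.02% in LG1, and no member. The same shares, 1.22% and 1.02%, had an unadjusted p under 0.05 with no limit on the fold change, again with no member.

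All 67 members lay within 0.5 of 0 on the log2 scale in both phases, from -0.36 to 0.22 in EG1 and from -0.33 to 0.23 in LG1. The median log2 fold change was 0.07 in EG1 and 0.04 in LG1, beside 0.00 and 0.01 for all genes. All 14 eIF3 subunits had log2 fold changes above 0 in both phases, with medians of 0.07 and 0.06, against a median standard error of 0.22 per member. Most members shared this sign, with 54 of 67 above 0 in EG1 and 52 of 67 in LG1. The shares of all genes above 0 were 50.1% and 52.5%. In the test of whether the EG1 and LG1 responses differed, 0% of genes were called and 0.699% had an unadjusted p under 0.05. No member was among them by edgeR, and DESeq2 called none.

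In EG1, 3 members were above both controls in both libraries and 0 below, 4.48% and 0% beside 7.98% and 13.4% of all genes, and in LG1 2 and 1, 2.99% and 1.49% beside 7.83% and 10.4%. The members with the largest differences without overlap were near the control level too. In EG1, Eif4g3, a relative of the eIF4F scaffold, had 1803 and 1763 counts in controls and 1933 and 2051 with IAA, a log2 fold change of 0.16. Eef1a1 had 253000 and 252800 in controls and 277700 and 259400 with IAA (0.09), and Eef2 173900 and 167600 in controls and 182500 and 175800 with IAA (0.07). In LG1, Eef1a2 had 120.3 and 110.8 in controls and 133.9 and 127.4 with IAA (0.18). Eif2ak4 had 666 and 701.1 in LG1 controls and 732.4 and 766.3 with IAA (0.13), and Eef1akmt2 100.2 and 82.1, then 79.3 and 65.8 (-0.33).

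Eif2ak3, which was lowest at 4 h in the time course, did not stand out in G1. Eif2ak3 had 902 and 798.5 counts in EG1 controls and 961 and 784.6 with IAA, and 956.7 and 874.8 in LG1 controls and 897.3 and 989.7 with IAA. Its groups overlapped in both phases. In Eif2b2 and Eif1b the count was lower with IAA within each replicate number in both phases. Eif2b2 had 830.8 and 1167 in EG1 controls, 803.1 and 1114 with IAA, 858.7 and 1066 in LG1 controls and 673.7 and 1018 with IAA. Eif1b had 416.2 and 500, then 381.2 and 449.2 in EG1, and 394.2 and 523.2, then 381.2 and 456.2 in LG1. Eif2ak1, Eif2a and Eif5 kept no single direction, and no member had an unadjusted p under 0.05 by edgeR without a block. That fit leaves out the pairing by replicate number and can miss differences within a number. With the number as a block no member was called in either phase, by edgeR or DESeq2.

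Between the phases, LG1 control against EG1 control, 0% of genes were called and 1.44% had an unadjusted p under 0.05. No member passed either rule by edgeR, and DESeq2 called none. Eef2k, the kinase that inhibits eEF2, had 555.5 and 499.1 counts in EG1 and 661.5 and 587.1 in LG1, a log2 fold change of 0.24 (SE 0.137, unadjusted p = 0.114, edgeR). Eef2 (185700 and 184100 in LG1) and Eef1a1 (270100 and 277200 in LG1) were above their EG1 controls by 0.12 and 0.11 on the log2 scale. The median over members was 0.01, beside -0.00 for all genes. With the replicate number as a block, 152 genes or 0.723% were called, and no member.

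In the rescue cells the question was which responses remain when wild-type or catalytically dead SRCAP is present. After IAA, 0.00523% of 19111 genes were called in wtSRCAP and 0% in cdSRCAP cells, and 0 of 68 members in each by edgeR and by DESeq2. An unadjusted p under 0.05 was found for 7.4% of genes in wtSRCAP and no member. In cdSRCAP it was 5.64% of genes and 1 member, 1.47%. The members' median log2 fold change was 0.07 in wtSRCAP and 0.17 in cdSRCAP, beside -0.02 and 0.02 for all genes, and 47 and 55 of 68 were above 0. With the replicate number as a block the genes called numbered 612 (3.2%) in wtSRCAP and 345 (1.81%) in cdSRCAP, with no member among them. DESeq2 with the block called 1 member in wtSRCAP, Eif3b (0.53, adjusted p = 0.0183), 1.47% beside 4.19% of all genes, and none in cdSRCAP, beside 2.72%.

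The member with an unadjusted p under 0.05 in cdSRCAP cells was Eif2ak3. Its counts were 765.5 and 756.5 in cdSRCAP controls and 548 and 500.4 with IAA, a log2 fold change of -0.54 (SE 0.205, adjusted p = 0.811). In wtSRCAP cells they were 527.3 and 578.4, then 469.8 and 421.4, a log2 fold change of -0.31. Both treated libraries were below both controls in each line. The 2 responses differed by -0.22 on the log2 scale (unadjusted p = 0.457, edgeR), so no difference was detectable with 2 libraries per group. Eif2b2 had 787.9 and 1074 counts in wtSRCAP controls and 670.6 and 826.9 with IAA, and 768.3 and 1107 in cdSRCAP controls and 598 and 784.8 with IAA. Within each replicate number Eif2b2 was lower with IAA in both lines, while the libraries of different numbers overlapped. Its log2 fold changes were -0.31 and -0.44 (unadjusted p = 0.28 and 0.139, edgeR), and with the replicate number as a block -0.31 and -0.43 (adjusted p = 0.320 and 0.175), which did not pass the threshold.

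Across functional groups, the eIF2 kinases had 3 of 4 members below 0 in each rescue line, with a median log2 fold change of -0.34 in wtSRCAP and -0.35 in cdSRCAP. All 7 genes of the elongation factor group were above 0 in each line, with medians of 0.19 and 0.23. All 14 eIF3 subunits were above 0 in cdSRCAP after IAA, with a median of 0.16, and 12 of 14 in wtSRCAP. For comparison, 47.7% of all genes in wtSRCAP and 52.3% in cdSRCAP were above 0.

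Both treated libraries were above both controls in 11 members (16.2%) of each line, beside 14.9% of all genes in wtSRCAP and 18.7% in cdSRCAP. They were below in 6 members (8.82%) in wtSRCAP and 3 (4.41%) in cdSRCAP, beside 19.5% and 19.0%. Single members with the largest differences without overlap in wtSRCAP after IAA were Eif3b (10920 and 13030 counts, then 17990 and 15380, log2 fold change 0.48, adjusted p = 0.690), Eef1d (3881 and 5368, then 6509 and 5648, 0.39) and Eif5a2 (327.3 and 312.2, then 157.8 and 258.1, -0.61). Eef1akmt2 went from 77.4 and 77.6 to 64.6 and 48.2 counts (-0.47). In cdSRCAP, Eif5a2 had 271.3 and 338 counts in controls and 220.1 and 244.8 with IAA (-0.39), and Eif2ak4 483.1 and 511, then 399.9 and 423.7 (-0.27). Eef1a2 had 20.8 and 41.3 counts in cdSRCAP controls and 49.99 and 56.9 with IAA (0.76). Eif5a2 was lower in both lines, as it was in SYAT cells, but its unadjusted p was not under 0.05 in any of the 12 comparisons.

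Eif4e1b and Eif4ebp3 also fell under the rule but were counted too sparsely for a firm value. Eif4e1b had 2.38 and 0.835 counts in wtSRCAP controls and 3.59 and 5.03 with IAA, and 0 and 4.27 in cdSRCAP controls and 9.61 and 9.89 with IAA. Eif4ebp3 had 16.7 and 5.84 counts in wtSRCAP controls and 3.59 and 4.31 with IAA, and 5.54 and 3.56 in cdSRCAP controls and 13.5 and 7.42 with IAA. The direction for Eif4ebp3 thus differed between the lines. In the test of whether the wtSRCAP and cdSRCAP responses differed, 0% of genes were called and 0.785% had an unadjusted p under 0.05, with no member among them by edgeR and none called by DESeq2.

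Between the lines without IAA, cdSRCAP control against wtSRCAP control, 0% of genes were called, and 3.82% had an unadjusted p under 0.05. No member was called by edgeR or DESeq2, and 2 members, 2.94%, had an unadjusted p under 0.05. With IAA in both lines 0.00523% of genes were called, 5.03% had an unadjusted p under 0.05, and 1 member, 1.47%, was among the latter. The median over members was -0.05 in both comparisons, beside -0.02 and 0.02 for all genes. Of the eIF3 subunits, 13 of 14 were below 0 without IAA and 12 of 14 with IAA. Of all 68 members 45 and 38 were below 0, beside 52.1% and 47.5% of all genes.

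Eif2s3y was the member that differed most between the lines. Its counts were 340.4 and 442.4 in wtSRCAP controls, 277.9 and 434.3 in wtSRCAP with IAA, 542.6 and 738.7 in cdSRCAP controls and 563.3 and 765 in cdSRCAP with IAA. All 4 cdSRCAP libraries were above all 4 wtSRCAP libraries. The log2 fold change of cdSRCAP over wtSRCAP was 0.71 (SE 0.30, unadjusted p = 0.0409, edgeR) without IAA and 0.89 (SE 0.302, adjusted p = 0.951) with IAA. With the replicate number as a block, which pairs the libraries of a number, the value with IAA was 0.91 and passed the threshold, in a fit that called 269 genes or 1.41%. Without IAA the blocked edgeR fit called 174 genes or 0.91% and no member, with Eif2s3y at 0.71 (adjusted p = 0.0547). DESeq2 with the same block called Eif2s3y without IAA as well (0.71, adjusted p = 0.0181), 1.47% of members beside 1.33% of all genes.

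Eif2s3x did not share this pattern, with 789.1 and 1768 counts in wtSRCAP controls and 707.4 and 1522 in cdSRCAP controls, and replicate 2 the higher library in each group. Eif2s3y lies on the Y chromosome from 1010543 to 1028847, and Eif2s3x on the X chromosome from 94188707 to 94212862. The 2 lines are 1 clone each, and a difference of the clones was not tested. Eif2ak3 was also higher in cdSRCAP controls than in wtSRCAP controls, by 0.46 (SE 0.205, unadjusted p = 0.0497), and with IAA both cdSRCAP libraries were again above both wtSRCAP libraries, by 0.24 (SE 0.206, unadjusted p = 0.28, edgeR).

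Of all members, 4 were higher and 5 lower in cdSRCAP without overlap in the absence of IAA (5.88% and 7.35%, beside 15.7% and 14.1% of all genes), and 7 each with IAA (10.3%, beside 19.1% and 14.6%). Other members picked by the rule differed less between the lines. Lower in cdSRCAP without IAA were Eif4g3 (3399 and 2982 counts in wtSRCAP, 2447 and 2275 in cdSRCAP, log2 fold change -0.43) and Eif1ad (1307 and 1360, then 923.3 and 1110, -0.39), while Eif4ebp2 was higher (6463 and 7003, then 7399 and 7719, 0.17). Lower in cdSRCAP with IAA were Eif6 (4553 and 3818, then 2803 and 3182, -0.48), the methyltransferase gene Eef1akmt4 (98.6 and 117.2, then 85.6 and 71.7, -0.46) and Eif2b4, the delta subunit of eIF2B (806.9 and 962.1, then 551.8 and 748.6, -0.44). Eef1a2 was higher with IAA, with 14.3 and 36.7 counts in wtSRCAP and 49.99 and 56.9 in cdSRCAP. None of these 7 reached an unadjusted p under 0.05 without a block. With the replicate number as a block Eif6 was at -0.49 with IAA (adjusted p = 0.107, edgeR) and at -0.52 with DESeq2 (adjusted p = 0.0392), where it was called, 1 of 2 members (2.94%) beside 2.12% of all genes.

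Over all 12 comparisons, the central factors had the following ranges. Eef1a1 had log2 fold changes from 0.00 to 0.20, Eef2 from -0.03 to 0.24, Eif5a from -0.12 to 0.27 and Eif4a1 from -0.00 to 0.30. Eif4ebp1, an inhibitor of eIF4E, ranged from -0.04 to 0.22, and Eif4g2, an eIF4G relative that works without eIF4E, from -0.04 to 0.29. Eif4e, the cap-binding protein, ranged from -0.11 to 0.34, the second helicase gene Eif4a2 from -0.26 to 0.38 and Eef2k from -0.23 to 0.34. None of these except Eif4a1 at 8 h had an unadjusted p under 0.05. Eif2ak1 was below 0 in all 12 comparisons, from -0.45 to -0.00, whereas Eif2ak2 ranged from -0.39 to 0.32 and Eif2ak4 from -0.40 to 0.13. Comparisons within a table share libraries, so that these signs are not independent.

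**Figure D5:**
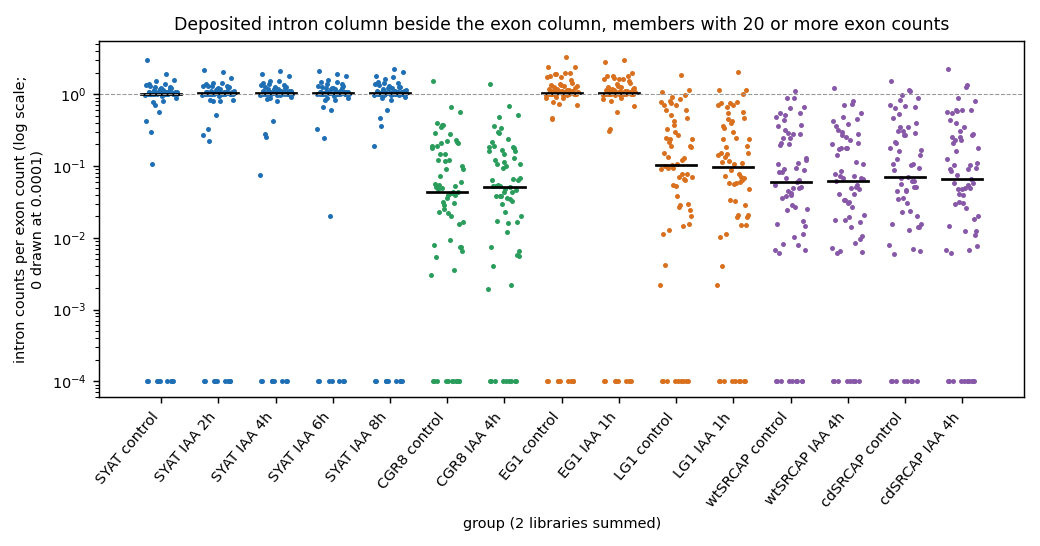
Intron counts divided by exon counts for each member with at least 20 exon counts, by group (log axis, values of 0 drawn at 0.0001). Members of the SYAT and EG1 groups cluster near 1, and those of the CGR8, LG1 and rescue groups lie about 1 order lower or more.

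The intron columns were not alike between groups, which limits their use. For members, the median ratio of intron to exon counts was 1.03 to 1.04 in the SYAT groups and 1.04 to 1.06 in EG1, but 0.0834 to 0.0983 in LG1, 0.0437 to 0.0495 in CGR8 and 0.0534 to 0.0654 in the rescue cells. Genes with a single exon have no intron, yet 46.9 to 49.8% of them had intron counts in the SYAT groups and 40.4 to 44.3% in EG1, against at most 0.0894% in the other groups. The intron columns of SYAT and EG1 libraries therefore also held reads of exons. Eif1, the start codon selection factor, had the same raw number in both columns of EG1 controls, 10179 and 10843, and intron counts of 0 in both LG1 controls.

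Between EG1 and LG1 controls this difference in the columns was larger than any response. Eef1a1 had 137300 and 149300 normalized intron counts in EG1 and 845.8 and 1181 in LG1, and Eef2 had 95460 and 100200, then 1061 and 1506. In that intron comparison 59.0% of 17441 genes were called, and 6 members were called higher and 36 lower of 60. The exon columns of the same libraries called no member by edgeR or DESeq2. Eif2b2 had intron log2 fold changes of -0.29 at 2 h and -0.54 at 8 h, beside -0.28 and -0.46 in exons, but these columns are not separate measurements.

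The wider pathway was read from 44 other genes in 6 lists, namely release and recycling factors, poly(A)-binding proteins, hypusine and diphthamide enzymes, the mTOR and MNK arm, the eIF2 alpha phosphatase and ATF4 arm, and selenocysteine elongation. All 44 were tested in every comparison. Of these, 0 were called higher and 1 lower in CGR8 and 0 higher and 1 lower in wtSRCAP with IAA, and none was called in the other 12 comparisons by edgeR. At an unadjusted p under 0.05, 0 were higher and 2 lower at 2 h in SYAT cells, 0 and 4 at 4 h, 3 and 4 at 6 h and 0 and 5 at 8 h. As shares of the 44 these were 4.55%, 9.09%, 15.9% and 11.4%, beside 3.92%, 9.09%, 16.1% and 13.6% of all genes. In CGR8, 2 were higher and 7 lower, 20.5% beside 9.16% of all genes. In wtSRCAP and cdSRCAP with IAA 0 were higher and 4 lower each, 9.09% beside 7.4% and 5.64%. In the rescue lines compared with each other 2 were lower without IAA and 2 with IAA, 4.55% beside 3.82% and 5.03%. In the sorted cells none passed.

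Both genes called belong to the ATF4 arm. Atf4, the transcription factor whose translation rises when eIF2 is phosphorylated, fell by 1.53 on the log2 scale in CGR8 (SE 0.149, adjusted p = 0.0444, edgeR). Chac1, a glutathione-degrading enzyme and ATF4 target, fell by 3.90 in wtSRCAP after IAA (SE 0.377, adjusted p = 0.0367). In SYAT cells Atf4 was at -0.48, -0.48, -0.50 and -0.59 at the 4 times (adjusted p = 0.159 at 8 h), and Chac1 at -1.94, -2.06, -1.79 and -1.50, none past the threshold. In CGR8 Chac1 was at -3.04 (adjusted p = 0.0618), and in cdSRCAP after IAA Chac1 was at -3.65 (adjusted p = 0.0745) and Atf4 at -1.02. Over the 8 genes of this arm the median log2 fold change was -0.71 in CGR8, -0.08, -0.29, -0.14 and -0.25 in SYAT at the 4 times, -0.29 in wtSRCAP and -0.45 in cdSRCAP with IAA. In EG1 and LG1, at 1 h, it was 0.04 and 0.07. Lower values after IAA were thus found in cells without a degron too, and the difference between cell lines was not tested.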

How the data were processed

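Nuclear RNA was sequenced from 30 libraries in 15 groups of 2 biological replicates. The authors deposited raw counts per gene, in an exon and an intron column per library and in 4 tables, made according to their methods by aligning to mm10 with STAR, taking exons from GENCODE vM25, introns as gene body minus exons, and counting with featureCounts. Tables with the authors' own fold changes were not used. Symbols, gene types, lengths and coordinates came from GENCODE vM21 of the same build, which matched 54349 identifiers with their version and 792 without, and left 260 unmatched. Columns of other samples numbered 0.

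Each table was fitted on its own with edgeR 4.0.16 (quasi-likelihood test, TMM, filterByExpr with a minimum count of 10 and a total of 15) in R 4.3.3, all groups in 1 fit, without a block. Adjusted p-values cover all genes tested. The step was tested on simulated data. TPM used merged exon length. Alternatives were DESeq2 1.42.0, DESeq2 size factors, no filter, a replicate block, leaving out each library, the intron column and the longest transcript length. Libraries of the same replicate number deviated together in the sorted cells (r = 0.37 to 0.59 over 6 pairs of groups) and the rescue cells (0.26 to 0.38), so numbers were taken to pair those samples, from the data only. In the SYAT (-0.04 to 0.59) and CGR8 (0.07) tables they were not. Some SYAT groups did deviate together as much as the sorted cells. The unmatched identifier also took more counts in replicate 1 than in replicate 2 in SYAT controls and at 2, 4 and 8 h, but not at 6 h. A pairing in SYAT cells is therefore possible, and the main fit and the overlap of libraries leave it out.

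Named members were those called, the 3 highest and 3 lowest log2 fold changes without overlap between libraries in each comparison, and 19 fixed genes. Others described were those with an unadjusted p under 0.05. The members and lists were chosen with earlier results of these data known.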

Additional observations from a re-analysis of the deposited data

How the results depend on the processing

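Of the 14 comparisons, 8 had no member called under any alternative run. In CGR8 cells the 0 members called by edgeR became 1 with DESeq2, 3 with DESeq2 and a replicate block, 2 with no filter on low counts and 3 with the replicate block (Eif2s3y, Eif3e and Eif3j2), and 0 to 13 when 1 library was left out, the 13 without control replicate 2. In SYAT cells at 6 h the count of 0 became 1 with DESeq2 (Eif2a), 3 with DESeq2 and the block (Eif1b, Eif2a and Eif5a2), 3 with no filter (Eef1d, Eef1g and Eif6) and 2 with the replicate block (Eif1b and Eif2a), and 0 to 15 when 1 library was left out, the 15 without replicate 1 of 6 h. A group left with 1 library was assumed to vary like the other groups. For cdSRCAP against wtSRCAP with IAA it was 2 with DESeq2 and the block (Eif2s3y and Eif6) and 1 with the replicate block (Eif2s3y). Without IAA it was 1 with DESeq2 and the block (Eif2s3y), and for wtSRCAP with IAA also 1 (Eif3b). The remaining comparisons gave 0 to 0 when 1 library was left out. In LG1 against EG1 controls the intron column called 42 members and the intron minus exon difference 37. Differences below 0 were set to 0, and in LG1 most intron counts were below the exon counts. The 37 calls therefore followed from the unlike columns and say nothing of a response. In the intron column Eef1a1 (-7.14) and Eef2 (-6.25) were reversed from their exon log2 fold changes of 0.11 and 0.12, because the intron column of EG1 also held reads of exons. For the other changes the cause was not tested.

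Over 80 pairs of a named member and a comparison, 1148 values were computed under the alternatives. Of these, 38 passed the thresholds in the direction of the main value and 2 in the opposite direction. The counts over all genes moved too. At 6 h in SYAT cells 13 genes were called by edgeR, 647 by DESeq2, 823 with the replicate block and 885 with no filter, and at 8 h 1, 445, 634 and 448. In CGR8 the counts were 2, 140, 500 and 386. As shares, DESeq2, the block and no filter called 1.47, 2.94 and 4.41% of members beside 3.37, 4.29 and 2.47% of all genes at 6 h, and 1.49, 4.48 and 2.94% beside 0.691, 2.47 and 1.26% in CGR8. DESeq2 with the block called 4.48% of members beside 2.02% of all genes in CGR8. For that setting at 6 h the share of all genes is not given, so its 3 members have nothing to be set against. DESeq2 size factors moved the median of all genes by at most 0.04 on the log2 scale. With longest transcript lengths Eef2 had 3894 and Eif5a 3686 TPM in SYAT controls, and 9 of the top 10 members were shared.

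With 2 libraries per group the spread of a group rests on 1 difference, so the fit borrows it from the other groups of the table. The median standard error of a member was 0.15 to 0.22 on the log2 scale in 3 tables and 0.32 in the rescue cells, without a block. A standard error is not the smallest difference that can be called. Eif2s3y at 0.71 (SE 0.30) between cdSRCAP and wtSRCAP controls was not called. With the replicate number as a block its SE was 0.178. Genes below 1 TPM rest on a few counts. Symbols come from an older annotation release than the counts. The strand setting of the counting is not known here, so antisense partners may share reads.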
